A study of Macaca fascicularis with 56 samples.

Results

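Genes of DNA replication and mitosis were followed through 8 h in the blood of cynomolgus macaques (Macaca fascicularis) from 3 treatment arms. The set holds 50 genes, read by probe sets whose only gene symbol in the annotation of the human array was 1 of the 50. For each gene the probe set with the highest mean log2 intensity over all 56 arrays was taken. All 50 genes were among the 15953 genes tested, of 19775 genes with a probe set of their own.

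Whole blood was drawn from 14 animals at 0, 2, 4 and 8 h, which gave 56 arrays. LR12 was given to 6 animals (Y31309 to Y31314), the control peptide to 4 (Y31305 to Y31308) and vehicle to 4 (Y31301 to Y31304). LR12 is a peptide derived from TREML1 (the TREM-like transcript 1 protein of platelets) that competes for ligands of TREM-1, a receptor that amplifies inflammatory signalling in neutrophils and monocytes. The series title names an endotoxin challenge followed by LR12 or a scrambled LR12 peptide, and the labels call the arms LR12, peptide control and Vehicle. The labels used here do not give doses, ages, sexes or genotypes. They also do not place hour 0 against the challenge, and do not state whether the vehicle animals received endotoxin.

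As background, a cell licenses its DNA for replication by loading the MCM helicase, then copies it with the help of the PCNA clamp and a supply of deoxynucleotides. It divides under cyclin-dependent kinases, Aurora and Polo-like kinases, the spindle checkpoint and the anaphase-promoting complex, while kinetochores hold the chromosomes to the spindle. Most circulating leukocytes are not dividing. Transcripts of these genes in blood come mainly from the small share of cells in cycle, such as activated lymphocytes, plasmablasts and immature cells.

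The values were log2 of the deposited MAS5 intensities, and differences are log2 differences with the standard error (SE) of limma. A gene was called at a Benjamini-Hochberg adjusted p below 0.05 over all 15953 genes, from a model with the animal as a block. Human probes read macaque RNA, so levels were not compared between genes. Median levels of the arrays lay between 12.9 and 23.5 on the linear scale, and between 6 (peptide control, 2 and 4 h) and 14 (LR12, 8 h) of the 50 genes had a group mean under the mean array median. Spiked poly-A controls split the arrays into 24 with high and 32 with low control signal. At 0, 2, 4 and 8 h the high-control arrays were 1, 1, 2 and 3 of 6 in the LR12 arm, 3, 1, 4 and 3 of 4 in the peptide control arm and 2, 0, 2 and 2 of 4 in the vehicle arm.

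At 0 h the arms did not differ by any call among the 50 genes. Of all genes tested, 0% were called in either direction for LR12 versus peptide control, and 0 of the 50 were called by limma, with 1 at an unadjusted p below 0.05. Between LR12 and vehicle at 0 h, 0.0125% of all genes were called higher and 0.0188% lower. None of the 50 was among them, and 0 had an unadjusted p below 0.05. The median difference over the 50 genes at 0 h was 0.12 for LR12 versus peptide control and 0.12 for LR12 versus vehicle.

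In the LR12 arm most of the 50 genes fell and stayed low through 8 h. At 2 h, 28 of the 50 fell and 2 rose against 0 h, where 25.9% of all genes were called lower and 12.1% higher. At 4 h, 35 fell and 0 rose, against 30% lower and 12.8% higher over all genes, and at 8 h, 38 fell and 0 rose, against 25.6% lower and 10.9% higher. Over the 50 genes the median change reached -1.05, -1.31 and -1.40 at these hours. The median of all genes tested moved by -0.18, -0.29 and -0.27, so relative to all genes the 50 stood at -0.87, -1.02 and -1.13.

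With each array centred on its own median instead, 22.8%, 20.6% and 14% of all genes were called lower and 12.5%, 18.4% and 16.9% higher, while 28, 30 and 35 of the 50 genes fell and 3, 1 and 0 rose.

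The fall had the same breadth when 1 animal at a time was left out: the counts of genes called lower stayed within 26 to 29 at 2 h, 30 to 35 at 4 h and 35 to 39 at 8 h. Within the low-control arrays alone the counts were 29, 34 and 34. Within the high-control arrays, where the LR12 arm had 1, 1, 2 and 3 arrays, they were 1, 9 and 3. Groups at the later hour and at 0 h did not overlap for 6 of the 50 genes at 2 h, 22 at 4 h and 24 at 8 h. Non-overlap was not counted over all genes tested, so these counts cannot be read against a background.

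**Figure D1:**
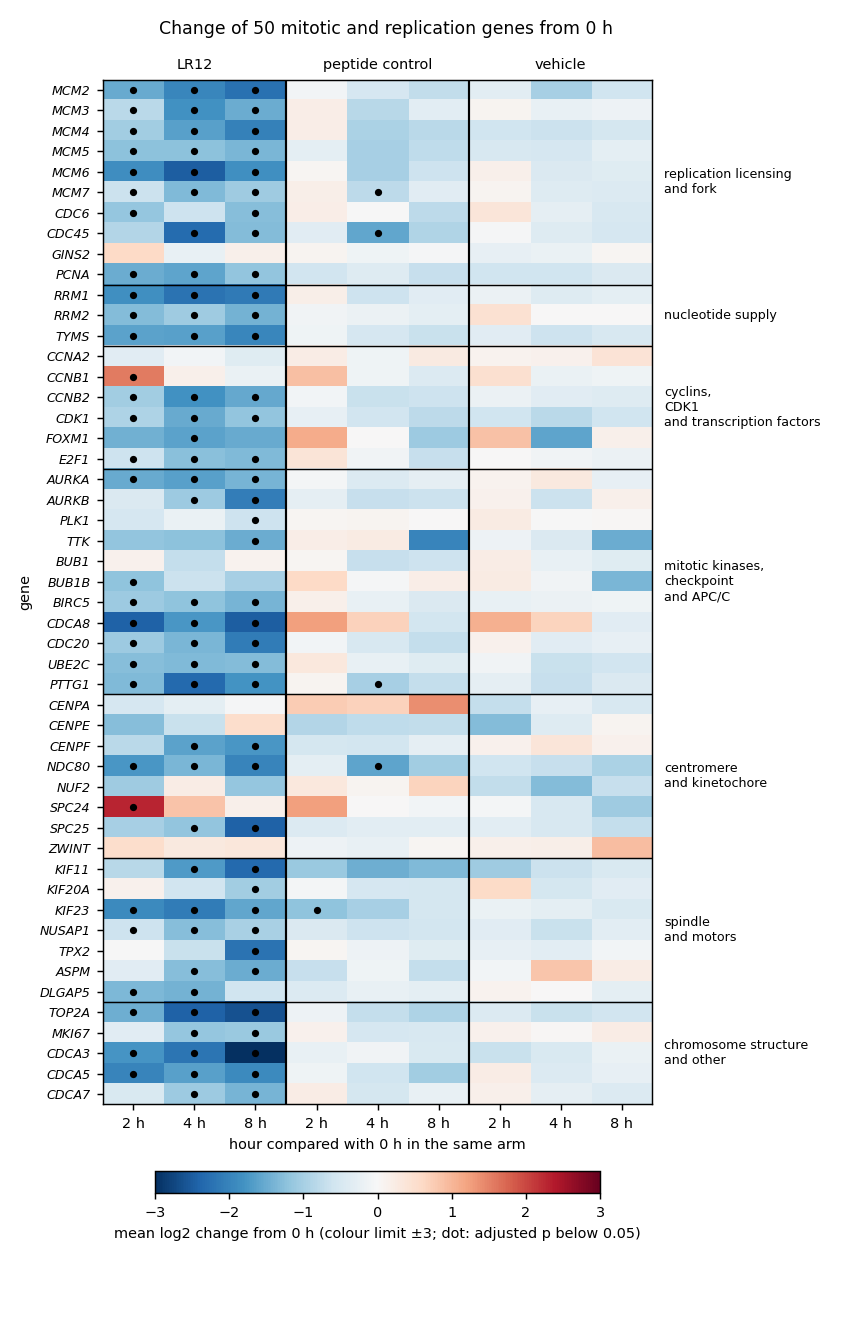
Mean log2 change from 0 h of the 50 genes (vertical axis, ordered by role) at 2, 4 and 8 h in the LR12, peptide control and vehicle arms, with colour for the change and a dot for an adjusted p below 0.05. In the LR12 columns 28, 35 and 38 genes carry a dot for a fall, and in the vehicle columns none does.

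Blood is a mixture of cells, and fewer cells of a type cannot be told apart from less RNA per cell in bulk samples. Markers of T cells moved the same way in the same animals: 14, 16 and 15 of 16 tested T cell markers fell in the LR12 arm at 2, 4 and 8 h. Over all genes 25.9%, 30% and 25.6% were called lower. The summed level of the T cell markers spanned 11.42 to 12.85 on the log2 scale in LR12 animals at 8 h, against 13.61 to 14.33 at 0 h. Markers of other cell types, some of which fell and some rose, are given further below. The part of T cells in the fall of the 50 genes was not tested.

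Every LR12 animal showed the fall. The median change of the 50 genes at 8 h was -1.26 in Y31309, -1.10 in Y31310, -1.31 in Y31311, -1.95 in Y31312, -1.15 in Y31313 and -1.24 in Y31314. With the control peptide it was -0.19 in Y31305, -0.88 in Y31306, -0.83 in Y31307 and -0.02 in Y31308. In the vehicle arm it was -0.26 in Y31301, -0.26 in Y31302, -0.52 in Y31303 and -0.06 in Y31304. The LR12 animals lay below every control animal at 8 h. At 4 h they did not: the LR12 medians spanned -1.66 to -0.78, and Y31306 and Y31307 of the peptide control arm stood at -1.04 and -0.88, against -0.56 to -0.09 in the vehicle arm. At 2 h the LR12 medians spanned -1.26 to -0.50, against -0.25 to 0.41 in the peptide control arm and -0.49 to 0.34 in the vehicle arm.

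**Figure D2:**
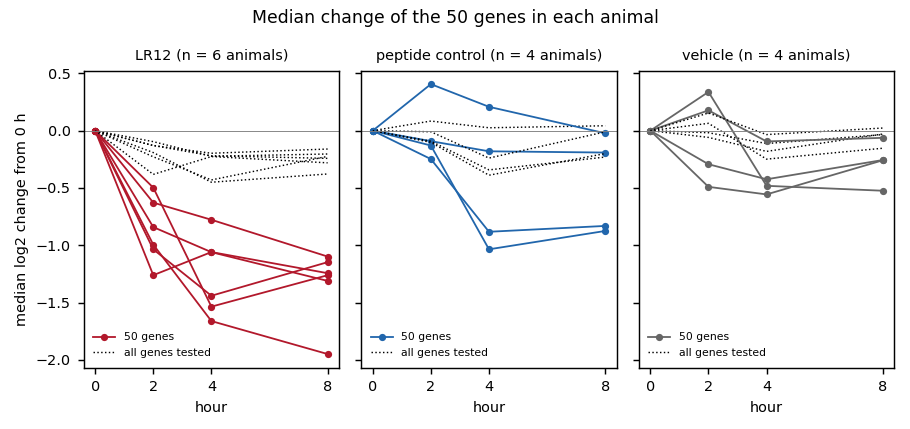
Median log2 change from 0 h of the 50 genes in each animal (lines with points) by hour, for the LR12 (n = 6), peptide control (n = 4) and vehicle (n = 4) arms, with the median of all genes tested dotted. At 8 h the LR12 animals lie between -1.95 and -1.10 and the animals of both control arms between -0.88 and -0.02.

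The number of genes lower in all 6 LR12 animals was 26 at 2 h, 27 at 4 h and 36 at 8 h, where 24.8%, 27.4% and 22.6% of all genes were lower in all 6. Of the 50 genes, 25 fell at all 3 hours: AURKA, BIRC5, CCNB2, CDC20, CDCA3, CDCA5, CDCA8, CDK1, E2F1, KIF23, MCM2, MCM3, MCM4, MCM5, MCM6, MCM7, NDC80, NUSAP1, PCNA, PTTG1, RRM1, RRM2, TOP2A, TYMS and UBE2C. Another 8 fell at 4 and 8 h but not at 2 h (ASPM, AURKB, CDC45, CDCA7, CENPF, KIF11, MKI67 and SPC25), and KIF20A, PLK1, TPX2 and TTK fell at 8 h alone. BUB1B was called at 2 h alone, FOXM1 at 4 h alone, DLGAP5 at 2 and 4 h, and CDC6 at 2 and 8 h. The other 9 genes fell at no hour by the chosen probe sets: BUB1, CCNA2, CCNB1, CENPA, CENPE, GINS2, NUF2, SPC24 and ZWINT. The share of all genes with each of these patterns of hours was not computed. All 3 hours are compared with the same 0 h arrays, so calls at several hours are not independent.

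Replication licensing and fork genes fell early and nearly as a whole. In the LR12 arm 8, 8 and 9 of the 10 were called lower at 2, 4 and 8 h, with median changes of -1.10, -1.61 and -1.34. The LR12 counts of this and the other role groups can be read against all genes. Of those, 25.9%, 30% and 25.6% were called lower at these hours. All 6 subunits of the MCM2 to MCM7 helicase, the motor that unwinds DNA at the fork, fell at each hour. GINS2, a subunit of the complex that activates that helicase, had differences of 0.59 (higher in 6 of 6 animals, adjusted p = 0.0681), -0.22 and 0.15 and was not called. Other, dimmer GINS2 probe sets stood at -0.40 and -0.77 at 2 h without a call. The second of these was called lower at 8 h (-1.38, adjusted p = 0.033), while the first was at 0.32 without a call.

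MCM6 carried the largest fall of the group at 4 h. In LR12 animals its lowest, median and highest log2 levels were 8.38, 8.65 and 9.51 at 0 h, 6.15, 6.89 and 8.41 at 2 h, 5.66, 6.18 and 7.18 at 4 h, then 6.06, 6.96 and 7.91 at 8 h. The 4 h and 8 h ranges lay wholly below the 0 h range, and at 2 h only Y31309, at 8.41, reached it. The difference at 4 h was -2.48 ± 0.31 (adjusted p = 4.72e-09), a 5.56-fold lower level. Peptide control animals had MCM6 levels of 7.57, 6.78, 6.40 and 6.80 at 4 h, against 7.62, 8.42, 8.24 and 7.22 at 0 h, lower in 4 of 4 animals but not called (-0.99 ± 0.37, adjusted p = 0.0625). Vehicle animals had 8.40, 8.05, 6.42 and 7.47 at 4 h, against 8.82, 8.65, 7.49 and 7.13 at 0 h, and these ranges overlapped.

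MCM2 spanned 3.55 to 5.38 (median 4.14) in LR12 animals at 8 h, against 5.55 to 7.22 (median 6.67) at 0 h, with no overlap. Its difference was -2.25 ± 0.35 (adjusted p = 1.95e-06), the largest of the group at 8 h. In the control arms MCM2 overlapped with its start, at 6.17, 5.07, 4.25 and 4.90 at 8 h, against 5.89, 5.86, 7.01 and 4.55 at 0 h with the control peptide, and at 6.05, 7.18, 4.58 and 5.61 at 8 h, against 6.95, 6.999, 6.04 and 5.85 at 0 h with vehicle. MCM7 moved less but with little spread between animals: 6.24 to 6.64 (median 6.48) at 4 h, against 7.53 to 8.23 (median 7.77) at 0 h, a difference of -1.33 ± 0.19 (adjusted p = 1.26e-07). Vehicle animals had MCM7 levels of 7.42, 7.49, 6.79 and 7.55 at 4 h, against 7.95, 8.28, 7.40 and 7.14 at 0 h, which overlapped. MCM3, MCM4 and MCM5 changed by -1.50, -2.03 and -1.37 at 8 h, and MCM5 was lower in 5 of 6 animals. CDC45, another part of the active helicase, was at -2.30 at 4 h and -1.30 at 8 h, and CDC6, a loader of the helicase, at -1.27 at 8 h.

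PCNA, the sliding clamp of DNA polymerases, fell at each hour. Its LR12 levels were 8.29, 9.18 and 9.70 (lowest, median, highest) at 0 h, 7.06, 7.54 and 8.29 at 2 h, 6.81, 7.57 and 7.95 at 4 h, then 7.65, 7.85 and 8.33 at 8 h. The change was called at each hour (-1.48 ± 0.19, adjusted p = 9.85e-09 at 2 h, and -1.58 ± 0.19, adjusted p = 1.87e-09 at 4 h). It was lower in 4 of 4 animals of both control arms at 2 h as well, without a call. The levels were 8.49, 8.69, 8.70 and 8.36 at 2 h in the peptide control arm, against 9.16, 9.15, 9.53 and 8.73 at 0 h (-0.58, adjusted p = 0.12). In the vehicle arm they were 8.83, 8.45, 8.21 and 8.55 at 2 h, against 9.12, 9.48, 8.85 and 8.96 at 0 h (-0.59, adjusted p = 0.33). In neither control arm did the 2 h and 0 h values overlap.

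The 3 genes of deoxynucleotide supply fell at every hour in the LR12 arm. RRM1, the large subunit of ribonucleotide reductase, had LR12 levels of 7.52, 8.58 and 9.30 (lowest, median, highest) at 0 h, 5.76, 6.43 and 8.44 at 2 h, 5.42, 6.45 and 6.95 at 4 h, then 5.09, 6.27 and 7.80 at 8 h. The 8.44 at 2 h and the 7.80 at 8 h were both Y31309, and the ranges at 4 h and 0 h did not overlap. Its difference was -2.21 ± 0.38 at 4 h (adjusted p = 3.21e-06). Peptide control animals had 8.17, 6.73, 7.57 and 8.11 at 4 h, against 8.24, 7.96, 8.79 and 8.11 at 0 h. Vehicle animals had 8.90, 8.84, 6.61 and 8.96 at 4 h, against 9.69, 10.12, 7.29 and 7.74 at 0 h, where the animals themselves were far apart.

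RRM2, the small subunit of the same enzyme, was at 7.15, 7.25 and 8.62 (lowest, median, highest) in LR12 animals at 8 h, against 8.26, 9.16 and 9.80 at 0 h, lower in 5 of 6 animals (-1.42 ± 0.28, adjusted p = 5.81e-05). A second, dimmer probe set of RRM2 did not follow it, with 0.32 at 8 h. TYMS, which makes thymidylate, changed by -1.60, -1.62 and -1.96 at 2, 4 and 8 h, lower in 6 of 6 animals each time (adjusted p = 1.67e-07 at 8 h). The peptide control animals had RRM2 levels of 9.39, 8.96, 8.13 and 8.14 at 8 h, against 8.45, 8.92, 9.81 and 8.59 at 0 h, and vehicle animals 8.68, 9.28, 7.75 and 8.49 at 8 h, against 9.11, 9.16, 8.11 and 7.81 at 0 h. The control ranges overlapped throughout.

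Cyclins, CDK1 and their transcription factors did not move as one. Of these 6 genes 3, 4 and 3 fell in the LR12 arm at 2, 4 and 8 h. CCNB1 rose at 2 h. E2F1, the transcription factor that turns on S phase genes, had LR12 levels of 7.56, 7.76 and 8.21 (lowest, median, highest) at 0 h, 6.91, 7.13 and 7.59 at 2 h, 5.81, 6.74 and 6.94 at 4 h, then 5.83, 6.63 and 6.75 at 8 h. The 4 h and 8 h ranges lay below the 0 h range, and the difference at 8 h was -1.33 ± 0.18 (adjusted p = 1.08e-07). In the peptide control arm the levels were 7.08, 6.92, 6.28 and 6.50 at 8 h, against 7.23, 7.88, 7.14 and 7.30 at 0 h, which did not overlap either but were not called (-0.69 ± 0.22, adjusted p = 0.0557). Vehicle animals had 7.97, 7.50, 7.45 and 7.52 at 8 h, against 8.01, 7.78, 7.68 and 7.66 at 0 h (-0.17, adjusted p = 0.884).

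The cyclins, which switch CDK1 on, split by gene. CCNB2 (cyclin B2) spanned 3.88 to 5.42 (median 4.72) in LR12 animals at 4 h, against 6.23 to 6.82 (median 6.54) at 0 h, and its groups overlapped at none of the 3 hours. The difference at 4 h was -1.82 ± 0.26 (adjusted p = 7.76e-08). CCNB2 in peptide control animals was at 5.98, 5.65, 5.70 and 6.22 at 4 h, against 6.48, 7.31, 6.95 and 5.44 at 0 h, and with vehicle at 5.94, 6.50, 5.63 and 6.41 at 4 h, against 6.20, 7.12, 6.02 and 6.50 at 0 h. Both control arms overlapped with their start. CCNB1 (cyclin B1) went the other way at first. Its LR12 levels were 5.33, 5.59 and 6.32 (lowest, median, highest) at 0 h, 5.98, 7.35 and 8.56 at 2 h, 5.02, 6.04 and 6.52 at 4 h, then 5.19, 5.41 and 5.87 at 8 h. It was higher at 2 h in 6 of 6 animals (1.57 ± 0.27, adjusted p = 6.5e-06, a 2.96-fold higher level). The lowest 2 h value, 5.98, lay within the starting range, and the 4 h and 8 h ranges overlapped that range as well.

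CCNB1 was also higher at 2 h in 3 of 4 animals of each control arm. With the control peptide the levels were 5.96, 6.74, 7.14 and 7.35 at 2 h, against 6.16, 5.17, 6.76 and 5.50 at 0 h (0.90 ± 0.34, adjusted p = 0.0954). Vehicle animals had 5.59, 6.46, 7.14 and 6.32 at 2 h, against 5.76, 6.43, 5.42 and 6.02 at 0 h (0.47, adjusted p = 0.723). A second CCNB1 probe set was at 1.23 ± 0.52 at 2 h in the LR12 arm, not called (adjusted p = 0.0621). CCNA2 (cyclin A2, of S and G2 phase) had the brightest probe set of the group and stood at -0.34, -0.08 and -0.35 with no call. In LR12 animals it spanned 6.87 to 8.09 (median 7.29) at 8 h, against 7.33 to 8.33 (median 7.79) at 0 h. Another CCNA2 probe set was called lower at each hour, with -0.73, -0.77 and -0.83. CDK1, the kinase of mitotic entry, fell by 0.92, 1.51 and 1.19, and FOXM1, a transcription factor of G2 and M phase genes, stood at -1.44, -1.60 and -1.52 with a single call at 4 h (adjusted p = 0.0499).

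Of the 11 genes of mitotic kinases, the spindle checkpoint and the anaphase-promoting complex, 7, 7 and 9 fell in the LR12 arm at 2, 4 and 8 h. PTTG1 (securin, which holds sister chromatids together until anaphase) had the brightest probe set of the group. Its LR12 levels were 9.81, 10.13 and 10.66 (lowest, median, highest) at 0 h, 8.33, 8.77 and 9.74 at 2 h, 7.59, 7.71 and 8.72 at 4 h, then 8.05, 8.38 and 8.92 at 8 h. No later range reached the 0 h range. The difference at 4 h was -2.32 ± 0.25 (adjusted p = 2.59e-10), a 4.998-fold lower level. Peptide control animals had 9.14, 8.60, 8.33 and 8.50 at 4 h, against 9.48, 10.17, 10.27 and 8.62 at 0 h, lower in 4 of 4 animals and called (-0.99 ± 0.31, adjusted p = 0.023). Vehicle animals had 9.45, 9.70, 7.84 and 9.36 at 4 h, against 10.06, 10.44, 9.19 and 9.44 at 0 h (-0.69, adjusted p = 0.288).

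CDC20, the activator of the anaphase-promoting complex, had LR12 levels of 6.92, 7.04 and 7.22 (lowest, median, highest) at 0 h, 5.55, 5.84 and 6.75 at 2 h, 5.08, 5.51 and 6.84 at 4 h, then 3.50, 5.25 and 5.68 at 8 h. The starting levels were close together and no later value reached them. At 8 h the difference was -2.09 ± 0.27 (adjusted p = 5.54e-08). The peptide control animals stood at 6.91, 6.12, 5.26 and 6.47 at 8 h, against 6.82, 7.55, 6.98 and 6.26 at 0 h, and vehicle animals 6.46, 7.06, 5.07 and 6.30 at 8 h, against 6.17, 7.05, 6.69 and 5.99 at 0 h. Both control arms overlapped with their own start.

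AURKB, the kinase of the chromosomal passenger complex, fell late. It spanned 5.70 to 7.14 at 0 h (median 6.32), 5.32 to 6.55 at 2 h (median 5.98), 4.95 to 5.75 at 4 h (median 5.28) and 2.87 to 5.13 at 8 h (median 4.47) in LR12 animals. The change was -0.44 without a call at 2 h, -1.08 at 4 h and -2.08 ± 0.31 at 8 h (adjusted p = 6.24e-07), and the 8 h and 0 h ranges did not overlap. In neither control arm was AURKB called at 8 h, and both arms overlapped with their start. It was at 5.97, 4.78, 5.92 and 5.68 at 8 h, against 6.52, 6.34, 6.66 and 5.42 at 0 h in peptide control animals, and at 5.80, 6.54, 4.96 and 5.96 at 8 h, against 5.57, 6.75, 5.20 and 5.09 at 0 h in vehicle animals. A dimmer second AURKB probe set was not called at any hour (0.26, 0.78 and -0.37). CDCA8 (borealin, of the same complex) was at 1.12, 1.60 and 4.79 (lowest, median, highest) at 2 h and at -1.002, 2.67 and 3.52 at 8 h in LR12 animals, against 3.69, 4.57 and 5.16 at 0 h. Its change was called at -2.43 ± 0.68 at 2 h (adjusted p = 0.00326) and -2.48 ± 0.68 at 8 h (adjusted p = 0.00327). At 2 h the group mean lay under the 20th percentile of the arrays, so this fall ended near the dim end of the scale. Low values also occurred in single control animals: CDCA8 was at 4.10, 4.63, 2.52 and 1.09 at 8 h, against 4.46, 4.41, 4.57 and 1.10 at 0 h in peptide control animals, and at 4.59, 4.31, 0.40 and 4.01 at 8 h, against 3.86, 5.07, 4.55 and 1.18 at 0 h in vehicle animals.

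BIRC5 (survivin) changed by -1.09, -1.21 and -1.40, AURKA (the centrosome kinase) by -1.51, -1.64 and -1.40, and UBE2C (the ubiquitin-conjugating enzyme of the anaphase-promoting complex) by -1.29, -1.32 and -1.29, each called at all 3 hours. PLK1, a kinase of mitotic entry, was called at 8 h with -0.63 (adjusted p = 0.0169), and TTK, a spindle checkpoint kinase, with -1.50 (adjusted p = 0.0409). BUB1B, a checkpoint protein, was called at 2 h with -1.21 (adjusted p = 0.0224) and stood at -0.65 and -0.99 later. BUB1, a checkpoint kinase, had 0.14, -0.72 and 0.11 without a call. Of its 4 other probe sets 2 passed the filter, and both were called lower at each hour, with -2.05, -1.72 and -1.53 for the brighter one.

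Centromere and kinetochore genes were the group with the smallest share of calls: 1, 3 and 3 of 8 fell in the LR12 arm at 2, 4 and 8 h. Over all genes 25.9%, 30% and 25.6% were called lower, so with 8 genes these counts lie near the background. The 4 subunits of the NDC80 complex, which binds microtubules at the kinetochore, went different ways. NDC80 itself had LR12 levels of 6.64, 7.34 and 8.10 (lowest, median, highest) at 0 h, 4.95, 5.33 and 7.13 at 2 h, 5.40, 6.08 and 6.55 at 4 h, then 4.51, 5.52 and 5.79 at 8 h. It fell at each hour, without overlap at 4 and 8 h, and was at -1.97 ± 0.31 at 8 h (adjusted p = 1.59e-06). The 7.13 at 2 h was again Y31309. Vehicle animals had NDC80 levels of 6.997, 7.36, 6.04 and 6.61 at 4 h, against 7.81, 8.16, 6.67 and 7.13 at 0 h, lower in 4 of 4 without a call (-0.69, adjusted p = 0.399).

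SPC25 spanned 0.34 to 4.09 (median 2.60) in LR12 animals at 8 h, against 3.83 to 5.34 (median 4.53) at 0 h, a difference of -2.43 ± 0.42 (adjusted p = 8.2e-06). Only Y31309, at 4.09, reached the starting range. Peptide control animals had SPC25 levels of 4.98, 5.13, 4.21 and 4.59 at 8 h, against 4.62, 6.05, 5.56 and 3.99 at 0 h. In vehicle animals SPC25 was at 3.86, 4.64, 4.17 and 3.69 at 8 h, against 4.81, 4.94, 4.85 and 4.63 at 0 h. NUF2, the partner of NDC80, stood at -1.06, 0.23 and -1.15 with an SE of 0.65 and was not called.

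SPC24 rose at 2 h in the LR12 arm. Its LR12 levels were 4.27, 4.57 and 4.85 (lowest, median, highest) at 0 h, 6.67, 6.79 and 7.02 at 2 h, 4.64, 5.56 and 5.94 at 4 h, then 3.01, 5.16 and 5.59 at 8 h. The 6 animals lay close together at 2 h and above every 0 h value, a difference of 2.29 ± 0.42 (adjusted p = 1.56e-05), or 4.90-fold. At 4 h it had fallen again by 1.44 against 2 h (adjusted p = 0.0119), with no overlap. With the control peptide 3 of 4 animals were higher at 2 h, with 4.86, 6.61, 6.43 and 6.88, against 5.27, 5.10, 4.43 and 5.09 at 0 h (1.22 ± 0.52, adjusted p = 0.155). Vehicle animals had 5.19, 3.28, 6.33 and 5.20 at 2 h, against 4.56, 4.97, 4.49 and 6.20 at 0 h, with no common direction. A dimmer second SPC24 probe set was at -1.31 at 2 h (adjusted p = 0.0675) and was called lower at 8 h (-1.92, adjusted p = 0.00653), so the rise was seen with the chosen probe set alone.

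Among the other kinetochore genes CENPF, a protein of the outer kinetochore, stood at -0.81, -1.62 and -1.76 with calls at 4 and 8 h. CENPA, the histone variant that marks centromeres, was at -0.49, -0.29 and -0.03, CENPE, a kinetochore motor, at -1.27, -0.67 and 0.52, and ZWINT, a kinetochore scaffold protein, at 0.52, 0.29 and 0.33. None of these 3 was called.

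Among spindle and motor genes 3, 5 and 6 of 7 were called lower at 2, 4 and 8 h. NUSAP1, a microtubule-bundling protein, had LR12 levels of 6.57, 7.05 and 7.20 (lowest, median, highest) at 0 h, 5.82, 6.23 and 6.89 at 2 h, 4.64, 5.84 and 6.07 at 4 h, then 5.48, 5.87 and 6.44 at 8 h. It was lower in 6 of 6 animals at each hour and did not overlap with 0 h at 4 and 8 h (-1.28 ± 0.22, adjusted p = 3.16e-06 at 4 h). NUSAP1 in peptide control animals was at 6.42, 5.95, 6.24 and 6.44 at 4 h, against 6.71, 7.84, 6.73 and 6.20 at 0 h. With vehicle it was at 6.14, 6.52, 6.47 and 6.19 at 4 h, against 6.98, 7.52, 6.89 and 6.58 at 0 h, without overlap but not called (-0.66, adjusted p = 0.238). KIF11, the motor that pushes spindle poles apart, spanned -0.86 to 3.14 (median 2.09) at 8 h, against 3.63 to 4.46 (median 3.86) at 0 h, with no overlap. Its difference was -2.34 ± 0.58 (adjusted p = 0.00117), with the 8 h mean under the 20th percentile of the arrays. Peptide control animals had KIF11 levels of 2.75, 1.72, 1.40 and 3.04 at 8 h, against 3.90, 4.30, 2.07 and 3.91 at 0 h, lower in 4 of 4 without a call (-1.32, adjusted p = 0.307). In vehicle animals KIF11 was at 3.73, 2.46, 4.17 and 2.95 at 8 h, against 4.27, 4.42, 2.90 and 3.54 at 0 h.

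KIF23, a motor of cytokinesis, changed by -1.91, -2.10 and -1.55 in the LR12 arm. It was the 1 gene of the 50 called in the peptide control arm at 2 h (-1.21 ± 0.40, adjusted p = 0.0476, lower in 4 of 4 animals). KIF20A, another cytokinesis motor, was called at 8 h with -1.05, ASPM, a spindle pole protein, at 4 and 8 h with -1.29 and -1.48, and TPX2, the activator of AURKA, at 8 h with -2.21. The TPX2 values at 8 h ran as low as -1.60 and as high as 4.05, and 3 of 6 animals were lower at 8 h than at 4 h. DLGAP5, a spindle assembly protein, was at -1.34 and -1.41 at 2 and 4 h and then rose by 0.81 at 8 h against 4 h, in 6 of 6 animals (adjusted p = 0.0248).

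The 5 genes of chromosome structure and other division genes all fell at 4 and 8 h, and 3 of 5 at 2 h. TOP2A, the topoisomerase that untangles replicated DNA, had LR12 levels of 7.83, 8.11 and 8.85 (lowest, median, highest) at 0 h, 6.00, 6.48 and 8.17 at 2 h, 4.80, 5.86 and 6.54 at 4 h, then 5.18, 5.55 and 6.04 at 8 h. At 4 and 8 h every LR12 animal was below every 0 h value. The difference at 8 h was -2.62 ± 0.34 (adjusted p = 4.76e-08), a 6.14-fold lower level. A dimmer second TOP2A probe set stood at -0.07, -0.15 and -0.56 at 2, 4 and 8 h and was called at no hour (adjusted p = 0.0849 at 8 h), so the fall was seen with the chosen probe set alone. With the control peptide the levels were 8.25, 7.16, 6.37 and 5.94 at 8 h, against 7.71, 8.54, 8.70 and 6.45 at 0 h (-0.92, adjusted p = 0.204), and Y31305 was higher at 8 h than at 0 h. Vehicle animals had 7.71, 8.59, 6.54 and 7.16 at 8 h, against 8.35, 9.16, 7.48 and 7.31 at 0 h, lower in 4 of 4 animals without a call (-0.57, adjusted p = 0.724).

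CDCA3, a protein that promotes entry into mitosis, had the largest change of all 50 genes at 8 h by the chosen probe sets. It spanned 1.98 to 4.16 (median 2.25) in LR12 animals at 8 h, against 5.33 to 6.27 (median 5.67) at 0 h, without overlap (-3.09 ± 0.47, adjusted p = 9.65e-07, 8.53-fold lower). Its other probe set, of similar mean level, stood at -0.54 at 8 h without a call (adjusted p = 0.240) and at -0.37 at 2 h, and was called at 4 h with -0.84 (adjusted p = 0.0499). Peptide control animals had 4.94, 5.06, 5.37 and 5.43 at 8 h, against 6.24, 6.50, 5.84 and 4.04 at 0 h, and vehicle animals 5.15, 5.26, 4.57 and 5.45 at 8 h, against 5.17, 5.79, 5.23 and 5.05 at 0 h. All 8 control animals were above all 6 LR12 animals at 8 h. MKI67, the proliferation antigen, stood at -0.35 at 2 h without a call, though it was lower in 6 of 6 animals, and fell by 1.16 and 1.11 at 4 and 8 h by the chosen probe set. None of its 3 other probe sets was called at any of the 3 hours, with 0.59, -0.39 and -0.25 at 8 h. CDCA5 (sororin, which stabilises sister chromatid cohesion) fell by 1.98, 1.62 and 1.90, and CDCA7, a DNA-binding protein, by 1.09 and 1.40 at 4 and 8 h.

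**Figure D3:**
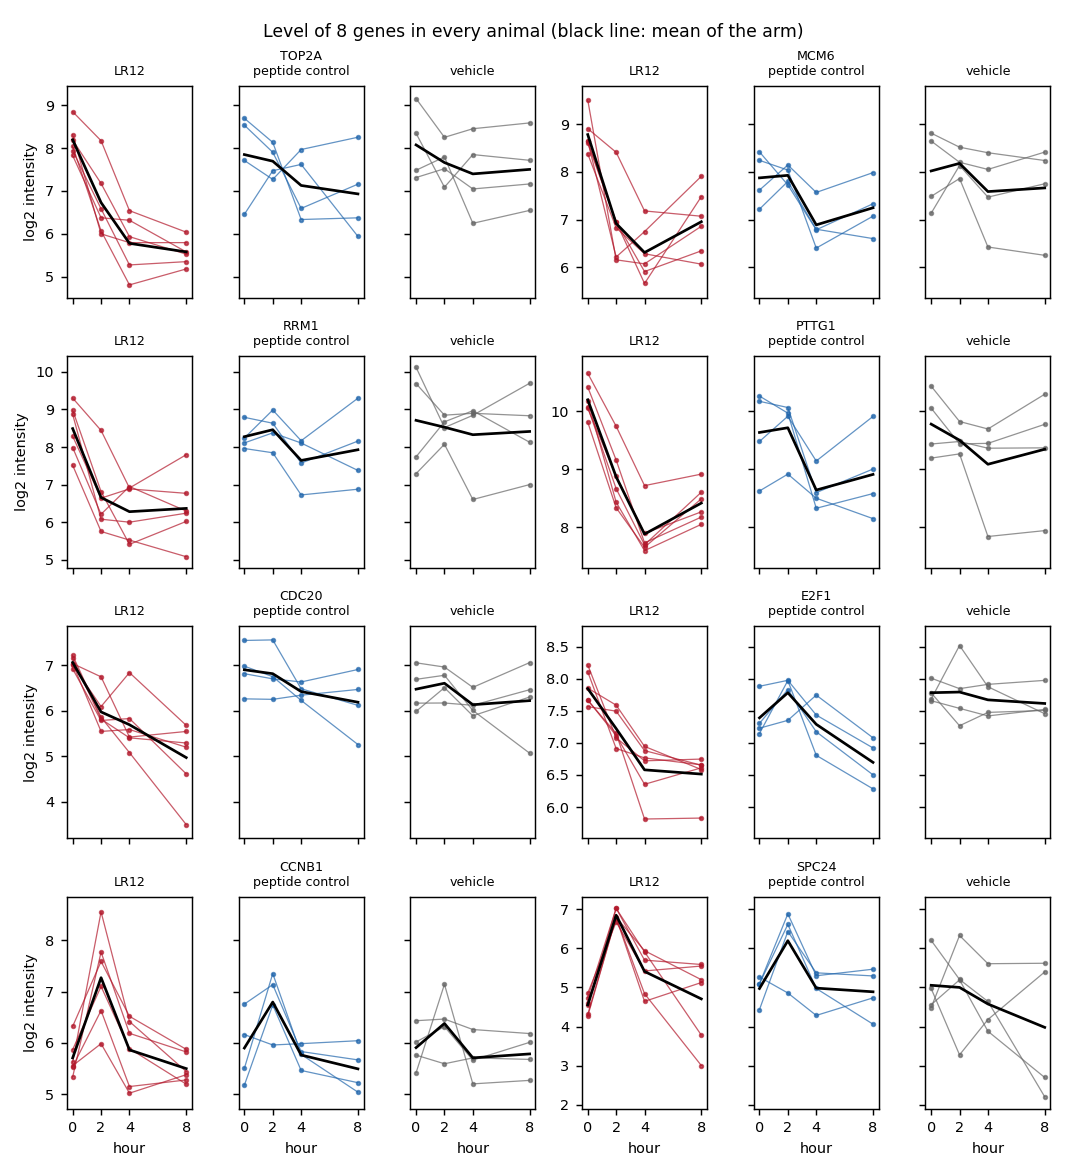
Log2 intensity of TOP2A, MCM6, RRM1, PTTG1, CDC20, E2F1, CCNB1 and SPC24 in every animal at 0, 2, 4 and 8 h in the LR12, peptide control and vehicle arms, with the mean of each arm as a black line. In the LR12 panels TOP2A ends between 5.18 and 6.04 at 8 h, while SPC24 peaks between 6.67 and 7.02 at 2 h.

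By hour, the lowest mean of the LR12 arm after 0 h came at 2 h for 4 genes, at 4 h for 19 and at 8 h for 27. This counts all 50 genes, called or not, with ZWINT and SPC24, whose means were above 0 h at every later hour. The share of all genes at each hour was not computed. Between 2 and 4 h, 12 of the 50 genes fell further in the LR12 arm and 0 rose, where 10.3% of all genes were called lower and 7.99% higher. They were MCM3, MCM7, CDC45, GINS2, CCNB1, CCNB2, E2F1, PTTG1, SPC24, NUSAP1, TOP2A and MKI67, with differences of -1.44 for SPC24 to -0.64 for E2F1. For CCNB1, SPC24 and GINS2 this step came down from a 2 h level above the start. Between 4 and 8 h, AURKB (-1.004), SPC25 (-1.25) and TPX2 (-1.54) fell and DLGAP5 rose, against 4.24% lower and 6.14% higher over all genes. With the control peptide 0 of the 50 were called between 4 and 8 h, with 2 at an unadjusted p below 0.05 (0.288% lower and 0.639% higher over all genes).

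In the peptide control arm the counts were no higher than over all genes. At 2 h 1 of the 50 fell and 0 rose (3.3% and 4.41% of all genes), at 4 h 4 fell and 0 rose (10.6% and 4.86%), and at 8 h 0 were called by limma (1.93% lower and 2.41% higher over all genes), with 11 at an unadjusted p below 0.05. The 4 at 4 h were NDC80, MCM7, PTTG1 and CDC45. NDC80 was at 5.12, 5.97, 6.01 and 6.26 at 4 h, against 7.55, 7.77, 8.09 and 6.27 at 0 h (-1.58 ± 0.38, adjusted p = 0.00422). MCM7 was at 6.86, 6.80, 6.68 and 6.79 at 4 h, against 7.28, 7.82, 8.09 and 7.04 at 0 h (-0.78 ± 0.23, adjusted p = 0.0198). CDC45 changed by -1.56 ± 0.49 (adjusted p = 0.0255). For NDC80 and MCM7 every 4 h value was below every 0 h value.

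These peptide control counts hung on single animals. Without Y31306 or without Y31307, 0 genes were called at 4 h, and without Y31305, 8 were. Without the animal as a block the count at 4 h was 1 and at 2 h 0. At 8 h the count was 5 without Y31305, 2 without Y31312 of the LR12 arm and 1 without Y31303 of the vehicle arm. At 2 h the call was kept without Y31303 or Y31312, and 0 genes were called without each of the others. The 13 of 16 T cell markers called lower in this arm at 4 h moved at the same hour, with summed levels of 12.04 to 13.16 at 4 h, against 13.31 to 13.98 at 0 h. Their part was not tested. The median change of the 50 genes was 0.00, -0.49 and -0.54 at 2, 4 and 8 h, against -0.04, -0.26 and -0.11 over all genes. From 2 to 4 h, 6 of the 50 fell in the peptide control arm, where 8.27% of all genes were called lower: MCM3, MCM4, MCM7, CCNB1, PTTG1 and NDC80.

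In the vehicle arm limma called 0 of the 50 genes at 2, 4 and 8 h, with 2, 6 and 6 at an unadjusted p below 0.05. Over all genes 0.00627%, 0.263% and 0.113% were called lower and 0.069%, 0.213% and 0.0313% higher. The median change of the 50 was -0.07, -0.38 and -0.33, against 0.03, -0.15 and -0.06 over all genes. At 4 and 8 h 14 and 15 of the 50 were lower in all 4 vehicle animals, where 15.4% and 11.0% of all genes were.

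Direct comparisons of the arms at the same hour gave fewer calls than the changes within the LR12 arm. Both comparisons share the 6 LR12 animals. Against the peptide control, 8 of the 50 were lower in LR12 animals at 2 h, where 4.18% of all genes were called lower, 4 at 4 h (1.37%) and 1 at 8 h (0.0501%), and 0 were higher (0.382%, 0.508% and 0.0125%). Against vehicle, 11 were lower and SPC24 was higher at 2 h (12.8% lower and 5.14% higher over all genes), 14 were lower at 4 h (9.06%) and 13 at 8 h (3.11%), with 0 higher at 4 and 8 h (4.96% and 1.55%). The median difference over the 50 genes at 2, 4 and 8 h was -0.84, -0.66 and -0.70 against the peptide control, and -0.66, -0.86 and -0.81 against vehicle. Over all genes these medians were -0.11, -0.02 and -0.12 against the peptide control and -0.16, -0.06 and -0.11 against vehicle.

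PCNA was lower in LR12 animals than in peptide control animals at 2 h (-0.91, adjusted p = 0.0195) and at 4 h (-1.21 ± 0.24, adjusted p = 0.00602). At 4 h its LR12 values of 6.81 to 7.95 lay below the 9.29, 8.75, 8.32 and 8.64 of the peptide control animals. Beside PCNA, the calls at 4 h were CCNB2, CDK1 and DLGAP5, with differences of -1.19, -1.22 and -1.19, none of which overlapped between the arms. At 2 h MCM4, RRM1, TYMS, CDCA8, UBE2C, NDC80 and CDCA5 were called besides PCNA. SPC25 was the 1 gene called at 8 h (-2.51 ± 0.53, adjusted p = 0.0377), and its LR12 values all lay below those of the peptide control animals.

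Counts against the peptide control depended on single animals. At 2 h they ranged from 1 (without Y31306, Y31307 or Y31313) to 17 (without Y31309), and were 2 without Y31305, Y31310 or Y31314, 4 without Y31311, 5 without Y31301 or Y31312 and 13 without Y31303. At 4 h they ranged from 0 (without Y31305) to 7 (without Y31309), with 1 without Y31308 or Y31313 and 2 without Y31306 or Y31312. At 8 h the single call was kept without Y31302 or Y31303, 4 genes were called without Y31309, and 0 without each of the others. With the poly-A control batch as a covariate 17, 12 and 2 genes were called. Within the low-control arrays the counts were 4 at 2 h and 3 at 8 h, and within the high-control arrays 0 at all 3 hours.

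Against vehicle, E2F1 was lower in LR12 animals at 4 h (-1.09 ± 0.23, adjusted p = 0.00106) and at 8 h (-1.10 ± 0.23, adjusted p = 0.00372), without overlap at either hour. At 8 h its LR12 values of 5.83 to 6.75 stood below the 7.97, 7.50, 7.45 and 7.52 of the vehicle animals. RRM1 was lower at all 3 hours, by 1.87, 2.04 and 2.04. MCM4 and TOP2A were lower by 1.71 and 1.93 at 8 h (adjusted p = 0.00701 and 0.0071). The SPC24 level at 2 h was higher by 1.84 ± 0.54 (adjusted p = 0.0117). At 2 h the count of genes lower was 6 without Y31301, 7 without Y31304 and 17 without Y31309. At 4 h it was 5 without Y31301 and 7 without Y31302. At 8 h it was 1 without Y31302, 3 without Y31301, 5 without Y31304, 7 without Y31312, 8 without Y31311 and 25 without Y31303.

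The difference between arms in the change from 0 h, tested as such, was called for fewer genes still. Against the peptide control it was called for 2 of the 50 at 2 h, where 1.1% of all genes were called lower: MCM6 (-1.92 ± 0.48, adjusted p = 0.0357) and UBE2C (-1.60 ± 0.43, adjusted p = 0.0481). At 4 and 8 h limma called 0 (0% lower over all genes at both hours), with 19 and 21 at an unadjusted p below 0.05. Against vehicle, 9 were called lower at 2 h (7.8% of all genes), 13 at 4 h (4.79%) and 5 at 8 h (1.09%), and SPC24 was called higher at 2 h (2.85% of all genes).

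MCM6 was called against vehicle at 2 h (-2.03 ± 0.48) and 4 h (-2.04 ± 0.48, adjusted p = 0.0114), and at 4 h the changes of the single animals did not overlap between the arms. E2F1 was at -1.15 ± 0.28 at 4 h (adjusted p = 0.0132) and -1.16 ± 0.28 at 8 h (adjusted p = 0.0287), PTTG1 at -1.63 ± 0.40 at 4 h (adjusted p = 0.013), and SPC24 at 2.35 ± 0.67 at 2 h (adjusted p = 0.0179). Called at 8 h besides E2F1 were AURKB (-2.24 ± 0.49, adjusted p = 0.0162), CDC20 (-1.84 ± 0.43), TOP2A (-2.05 ± 0.54) and CDCA3 (-2.89 ± 0.74).

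These counts too depended on single animals. Against the peptide control at 2 h they ranged from 0 to 10, with 10 without Y31309, 7 without Y31303, 3 without Y31307, 1 without Y31302, Y31304 or Y31310, and 0 without Y31305, Y31306, Y31308, Y31311, Y31312, Y31313 or Y31314. At 4 h 1 gene was called without Y31303. Against vehicle at 2 h they were 0 without Y31304, 3 without Y31301 and 5 without Y31311 or Y31314. At 4 h they were 0 without Y31304, 1 without Y31301, 7 without Y31311 or Y31313 and 8 without Y31312. At 8 h they were 0 without Y31301, Y31304 or Y31312, 1 without Y31302, 2 without Y31311, 3 without Y31309, 10 without Y31305 and 15 without Y31303. The median difference over the 50 genes was -0.96, -0.89 and -0.93 against the peptide control at 2, 4 and 8 h and -0.86, -0.95 and -1.12 against vehicle. Within the low-control arrays alone 0, 3 and 1 genes were called against vehicle. Without the animal as a block 2, 0 and 0 genes were called against vehicle and 0 at all 3 hours against the peptide control.

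**Figure D4:**
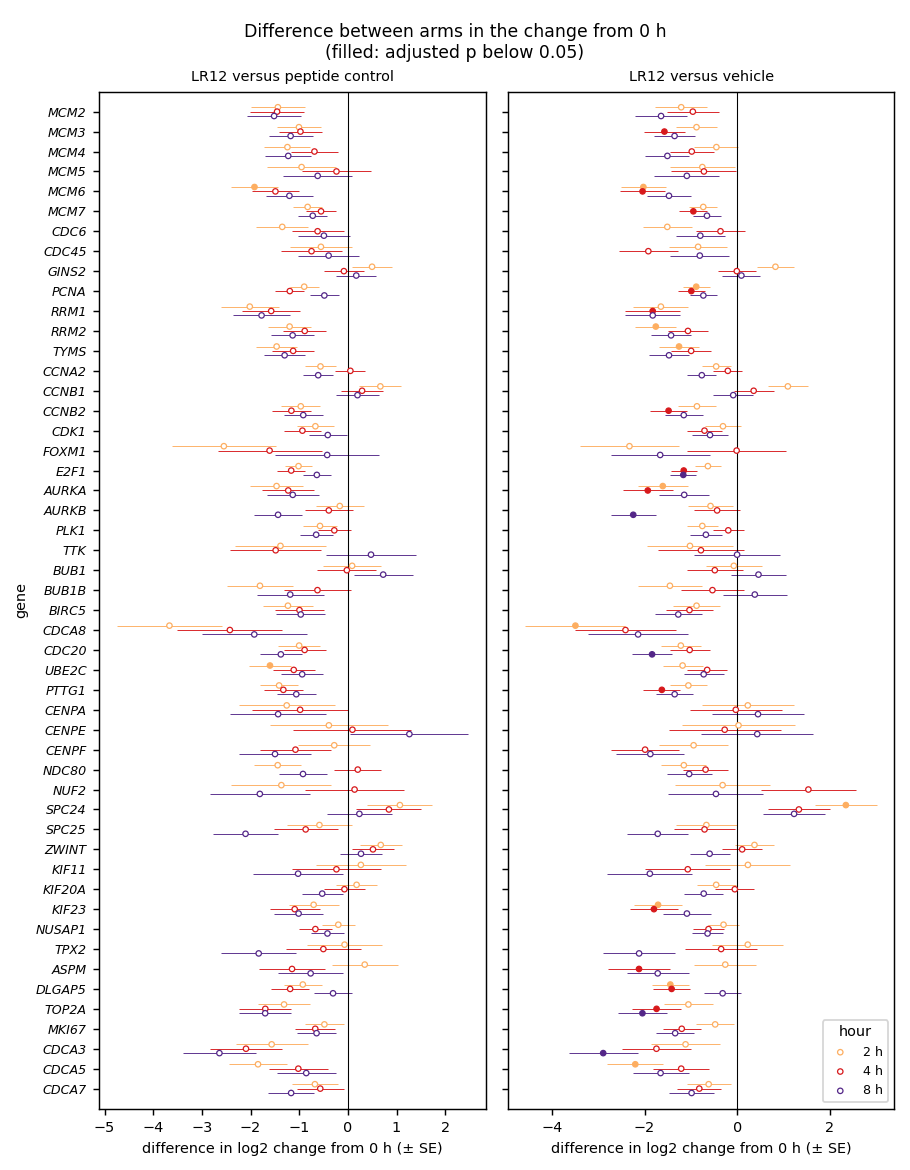
Difference in the log2 change from 0 h (horizontal axis, ± SE) of the 50 genes at 2, 4 and 8 h, LR12 versus peptide control on the left and LR12 versus vehicle on the right, with filled points for an adjusted p below 0.05. Most points lie left of 0 in both panels, with 2 filled points for a lower value on the left and 27 on the right.

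The peptide control and vehicle arms were also set against each other. Limma called 0 of the 50 genes at 0, 2, 4 and 8 h, with 1, 2, 1 and 2 at an unadjusted p below 0.05, and 0%, 0%, 0.00627% and 0.0125% of all genes were called lower. The median difference of the 50 genes between these arms was 0.01, 0.17, -0.05 and -0.14.

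Of the 50 genes, 25 had further probe sets of their own, 38 in all, that passed the filter. In the LR12 arm 13, 19 and 22 of the 38 were called lower at 2, 4 and 8 h and 0 were called higher. The share over all 30680 probe sets tested was not computed. With 1 probe set per gene, 25.9%, 30% and 25.6% of all genes were called lower at these hours. They had the same sign as the chosen probe set in 28, 32 and 29 cases. Among the genes that fell by the chosen probe set and had another, no other was called lower for 7 of 15 at 2 h (CDCA3, KIF23, MCM5, MCM6, RRM2, TOP2A and TYMS), 6 of 20 at 4 h (AURKB, CDCA7, CENPF, MKI67, RRM2 and TOP2A) and 7 of 20 at 8 h (AURKA, AURKB, CDCA3, KIF23, MKI67, RRM2 and TOP2A). The sign was opposite at all 3 hours for the second probe set of SPC24 and for 1 of MKI67, which stood at 0.27, 0.96 and 0.59 without a call.

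Other cell cycle genes were followed in the same way. Of 48 other replication genes tested, 18, 21 and 23 fell and 6, 5 and 4 rose in the LR12 arm at 2, 4 and 8 h. Over all genes 25.9%, 30% and 25.6% were called lower and 12.1%, 12.8% and 10.9% higher at these hours. The median change of the 48 in single LR12 animals was -0.73 to -0.35 at 4 h and -0.79 to -0.44 at 8 h. Over all genes it was -0.45 to -0.20 and -0.38 to -0.16. The summed level of the 48 adds linear intensities, so the brightest probe sets weigh most. This sum did not fall: it was 14.28 to 14.58 on the log2 scale at 4 h and 13.89 to 14.33 at 8 h, against 13.71 to 13.99 at 0 h. At 8 h POLD2, POLA1 and PRIM1, subunits of DNA polymerases delta and alpha, fell by 2.38, 1.56 and 1.97. CDC7, the kinase that fires replication origins, rose at 8 h to 10.34 ± 0.31, against 8.90 ± 0.27 at 0 h (SD, n = 6), a change of 1.44 (adjusted p = 0.000277). RFC5, a subunit of the clamp loader, and POLD3, a polymerase delta subunit, rose by 1.10 and 1.17. CDC7 also rose in the peptide control arm, by 1.89 at 2 h and 2.19 at 4 h.

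Of 56 other mitotic genes 20, 24 and 28 fell and 0 rose. KIF18B and KIFC1, both kinesins, and PRC1, a protein of the central spindle, had the smallest p at 8 h and fell by 2.97, 1.95 and 2.36. In the vehicle arm 0 of the 48 and 0 of the 56 were called. With the control peptide 2, 5 and 1 of the other replication genes fell and 4, 2 and 1 rose at 2, 4 and 8 h, and 0, 2 and 1 of the other mitotic genes fell and 0, 1 and 0 rose. Over all genes 3.3%, 10.6% and 1.93% were called lower and 4.41%, 4.86% and 2.41% higher in that arm.

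Genes of the G1 phase and the E2F and RB factors were divided: of 37 tested, 14, 19 and 19 fell and 3, 5 and 3 rose in the LR12 arm. CDK4, a G1 kinase, WEE1, an inhibitor kinase of CDK1, and CDC25B, its activating phosphatase, fell by 1.51, 1.73 and 2.03 at 8 h. TFDP1, a dimerisation partner of E2F1, rose by 2.74, to 12.24 ± 0.43 at 8 h, against 9.50 ± 0.38 at 0 h (SD, n = 6), and E2F2 and E2F3 rose by 1.79 and 1.24. E2F5, of the same family, fell by 1.96 at 2 h, to 4.75 ± 0.69, against 6.71 ± 0.73 at 0 h (SD, n = 6).

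Of 26 cell cycle inhibitors and p53 targets, 10, 10 and 5 fell and 7, 6 and 6 rose. GADD45A, a stress-induced growth arrest gene, rose by 1.95, CDKN2B, an inhibitor of G1 kinases, by 2.59, and CCNG2, an atypical cyclin linked to arrest, by 1.12 at 8 h. BTG3, SESN3 and GADD45G, an antiproliferative gene, a stress sensor and a relative of GADD45A, fell by 1.33, 0.95 and 0.99. These list counts, and the LR12 marker counts below, can be read against all genes. Of those, 25.9%, 30% and 25.6% were called lower and 12.1%, 12.8% and 10.9% higher at 2, 4 and 8 h.

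**Figure D5:**
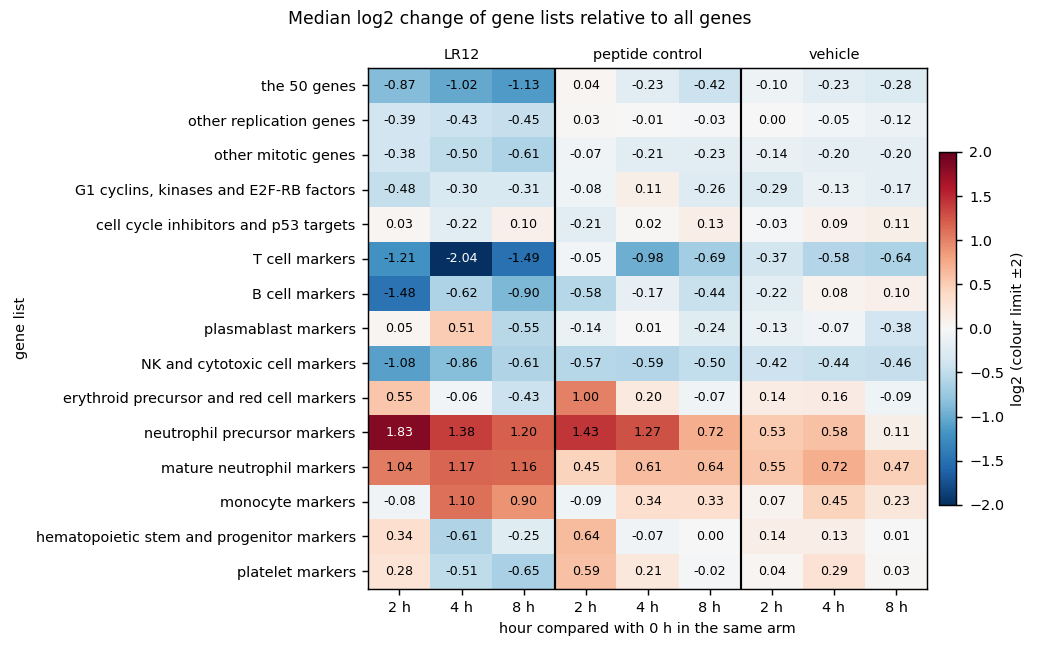
Median log2 change from 0 h of 15 gene lists, the 50 genes among them, relative to the median of all genes tested, at 2, 4 and 8 h in the LR12, peptide control and vehicle arms. In the LR12 arm at 8 h the 50 genes are at -1.13, and the T cell markers are at -1.49.

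Markers of leukocytes were checked against the labelled tissue, whole blood. Above the array median on every array were 13 of 16 T cell, 11 of 12 monocyte and 14 of 16 mature neutrophil markers. Of 14 B cell markers, 11, 7 and 10 fell in the LR12 arm at 2, 4 and 8 h, with a summed level of 10.40 to 12.18 at 8 h, against 11.63 to 13.35 at 0 h. Of 15 NK and cytotoxic cell markers 9, 9 and 7 fell and 0, 1 and 0 rose. The 1 that rose was NKG7, by 1.60 at 4 h. Their summed level was 10.53 to 11.28 at 8 h, against 11.97 to 12.96 at 0 h, and overlapped the 0 h range at 4 h (11.25 to 12.45). LCK, a T cell kinase, fell by 2.77, CD79A, of the B cell receptor, by 2.20, and GZMH, a cytotoxic granzyme, by 3.72 at 8 h.

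Of 11 plasmablast markers 3, 4 and 6 fell and 3, 2 and 0 rose, with a summed level of 10.12 to 11.02 at 8 h, against 10.85 to 11.84 at 0 h. MZB1, a plasma cell chaperone, fell by 1.83. Of 15 erythroid markers 0, 1 and 8 fell and 2, 1 and 1 rose, with summed levels of 13.86 to 14.59 at 8 h, against 13.85 to 15.06 at 0 h, which overlap. Of 11 stem and progenitor markers 2, 5 and 4 fell and 3, 2 and 0 rose, and 3 of the 11 were above the array median on every array. Their summed level was 8.80 to 9.30 at 8 h, against 9.23 to 10.22 at 0 h.

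Neutrophil precursor markers went against the 50 genes: 9, 8 and 8 of 14 rose and 0, 1 and 0 fell. Their summed level was 14.74 to 15.11 at 8 h, against 12.43 to 13.81 at 0 h, and OLFM4, a granule protein, rose by 7.52. Mature neutrophil markers rose in 10, 12 and 10 of 16 and fell in 0, 2 and 1 (summed level 15.70 to 15.98 at 8 h, against 14.63 to 15.36 at 0 h). Monocyte markers rose in 3, 6 and 6 of 12 and fell in 5, 3 and 1 (14.84 to 15.16 at 8 h, against 14.30 to 14.82 at 0 h). Of 10 platelet markers 0, 5 and 5 fell and 2, 1 and 1 rose (12.63 to 13.25 at 8 h, against 12.92 to 13.96 at 0 h). The part of these cell types in the changes of the 50 genes was not tested.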

How the data were processed

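Whole blood RNA was collected in PAXgene tubes, amplified with an Ovation whole blood kit from 50 ng and hybridised to a human genome array with 54675 probe sets, per the labels' protocols. The deposited values were linear MAS5 intensities, per the submitters' processing notes; a version was not given in the sources used here. Their trimmed mean (2% at each end) was 150.03 to 150.04 on every array, as scaling of each array to 1 target would give. A common scale hides any change in total RNA, and human probes may bind macaque transcripts unevenly.

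The log2 intensities were fitted with limma 3.58.1 (R 4.3.3, statmod 1.5.0, the data.table package 1.17.8) in 1 model of 12 groups. The animal was a random block, with eBayes trend and robust moderation and 36 comparisons. Probe sets had to have 1 symbol (41097 did) and to exceed the array median on at least 4 of 56 arrays. For each gene the brightest on average was kept. Adjusted p-values are two-sided and by Benjamini-Hochberg within a comparison over 15953 genes, called at 0.05. They rest on a spread per gene that was pooled over all 12 groups, not on that of the compared groups alone. The LR12 arm had 6 animals and each control arm 4, and the precision is limited by the number of arrays. The same steps were tested on simulated data. Figures were drawn with matplotlib 3.10.9.

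The animals' labels pair the hours. Arrays of the same animal deviated together from their group means (mean correlation 0.18, 0.10 to 0.33 by animal, against -0.03 between animals), and 45 of 56 arrays matched best with another array of their own animal. The fit without the block is an alternative. Other alternatives were a fixed animal term, centring, quantile normalization, an offset of 16, no filter and a filter on 28 arrays, the hybridisation controls (18 probe sets) as a covariate, plain moderation, the mean of a gene's probe sets and leaving out each animal. The spiked poly-A controls (24 probe sets) and the second probe set were added after seeing the data.

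The members and gene lists were chosen with earlier results of these data known. All 50 genes were accounted for in 7 role groups. Values in every animal were given for the member of each group with the highest mean and that with the largest LR12 change at 8 h, for every member that rose, and for up to 3 members with the smallest p in each other kind of comparison. Of each other list, up to 3 called genes with the smallest p in each direction at 8 h were eligible to be named. All 50 symbols were found in the macaque gene table.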

Additional observations from a re-analysis of the deposited data

Results flagged for a closer look

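In 15 of 264 groups of 4 or 6 animals tested (5.68%) the highest or lowest animal stood apart from the others by Dixon's criterion, and chance gives about 1 in 20. Y31309 was the high one in the LR12 arm for CDCA8 (4.79) and MCM6 (8.41) at 2 h and for PTTG1 (8.72) at 4 h, and Y31312 the low one for E2F1 at 8 h (5.83). In the peptide control arm Y31308 was low for CDCA8 at 0 h (1.10) and for PTTG1 at 2 h (8.92), and Y31305 was high for NDC80 (7.52) and MCM7 (7.81) at 8 h. In the vehicle arm CDCA8 was low in Y31302 at 2 h (4.22) and 4 h (4.18) and in Y31303 at 8 h (0.40). Also in that arm, SPC25 was high in Y31303 at 2 h (5.18), RRM1 low in Y31303 at 4 h (6.61), KIF11 low in Y31304 at 4 h (2.44) and E2F1 high in Y31301 at 8 h (7.97).

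The difference between arms in the change from 0 h passed limma's test for 30 pairs of gene and hour. LR12 minus peptide control at 2 h gave MCM6 (-1.92) and UBE2C (-1.60). LR12 minus vehicle at 2 h gave MCM6 (-2.03), PCNA (-0.885), RRM2 (-1.76), TYMS (-1.26), AURKA (-1.61), CDCA8 (-3.49), KIF23 (-1.71), DLGAP5 (-1.44) and CDCA5 (-2.20), with SPC24 the other way (2.35). At 4 h LR12 minus vehicle gave MCM3 (-1.57), MCM6 (-2.04), MCM7 (-0.95), PCNA (-0.99), RRM1 (-1.82), CCNB2 (-1.48), E2F1 (-1.15), AURKA (-1.93), PTTG1 (-1.63), KIF23 (-1.80), ASPM (-2.12), DLGAP5 (-1.42) and TOP2A (-1.74). At 8 h it gave E2F1 (-1.16), AURKB (-2.24), CDC20 (-1.84), TOP2A (-2.05) and CDCA3 (-2.89). All 3 hours share the 0 h arrays, and both comparisons share the LR12 animals.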

How the results depend on the processing

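The counts of the 50 genes called lower in the LR12 arm (28, 35 and 38 at 2, 4 and 8 h) stayed within 1.5 times under every alternative but 1: within the high-control arrays alone they were 1, 9 and 3, with fewer samples. In the vehicle arm the count was 0 under all alternatives. Without the replicate block the LR12 counts were 26, 32 and 37, all among the same genes. With the filter on 28 arrays they were 30, 31 and 34, of which 28, 31 and 33 were among the same genes. That filter drops the dim probe sets of CENPF, TTK, KIF11, FOXM1, TPX2 and ASPM. With the second probe set they were 22, 26 and 32. Genes without a second probe set that passed the filter kept the chosen probe set there, so part of that agreement was fixed in advance. Leaving out 1 animal gave 26 to 29, 30 to 35 and 35 to 39 in the LR12 arm, 0 to 1, 0 to 8 and 0 to 5 in the peptide control arm, 1 to 17, 0 to 7 and 0 to 4 for LR12 versus peptide control, and 6 to 17, 5 to 17 and 1 to 25 for LR12 versus vehicle. For the difference in change it gave 0 to 10, 0 to 1 and 0 against the peptide control, and 0 to 13, 0 to 15 and 0 to 15 against vehicle.

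In the peptide control arm the 1 call at 2 h became 0 with no replicate block, arrays centred on their median, quantile normalization, no filter, the hybridisation covariate, plain moderation, the mean of all probe sets, either control set alone or the second probe set. The 4 calls at 4 h became 1 with no replicate block, centring or high-control arrays alone, 2 with quantile normalization, 7 with a fixed animal term or the strict filter, and 8 with the mean of all probe sets. The 0 at 8 h became 2 with a fixed animal term or the strict filter, 1 with quantile normalization or the poly-A covariate, and 7 with the hybridisation covariate.

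For LR12 versus peptide control, the 8 calls at 2 h became 2 with centring, 5 with quantile normalization, no filter, the hybridisation covariate, plain moderation or the second probe set, 17 with the poly-A covariate, 4 in low-control and 0 in high-control arrays. The 4 at 4 h became 2 with the offset or the mean of all probe sets, 14 with the hybridisation covariate, 12 with the poly-A covariate and 0 in high-control arrays. The 1 at 8 h became 0 with centring, quantile normalization, the offset, no filter, the hybridisation covariate, plain moderation or high-control arrays alone, 2 with the poly-A covariate and 3 in low-control arrays. For LR12 versus vehicle, the 11 at 2 h became 1 with the hybridisation covariate. The 14 at 4 h became 0 in high-control arrays and 6 with the second probe set. The 13 at 8 h became 8 with quantile normalization, 20 with the poly-A covariate, 0 in high-control arrays and 5 with the second probe set.

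For the difference in change against the peptide control, the 2 at 2 h became 0 with no replicate block, centring, no filter, the hybridisation or poly-A covariate, the mean of all probe sets, either control set alone or the second probe set, 1 with quantile normalization or plain moderation, 5 with the offset, 7 with the strict filter and 9 with a fixed animal term. The 0 at 4 h became 3 with a fixed animal term, and the 0 at 8 h stayed 0. Against vehicle, the 9 at 2 h became 2 with no replicate block, 14 with the strict filter, 0 with the hybridisation covariate or low-control arrays alone, 4 with the mean of all probe sets, 5 with the poly-A covariate and 3 with the second probe set. The 13 at 4 h became 0 with no replicate block or high-control arrays alone, 8 with centring, quantile normalization, no filter or the mean of all probe sets, 3 in low-control arrays and 5 with the second probe set. The 5 at 8 h became 0 with no replicate block or high-control arrays alone, 13 with a fixed animal term, 2 with centring, the hybridisation covariate or the second probe set, 3 with quantile normalization, no filter, plain moderation or the mean of all probe sets, 11 with the strict filter and 1 in low-control arrays. The causes were not tested.

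The alternatives with the poly-A controls and the second probe set were chosen after seeing the data. Of the values of single genes, 5530 kept their side of the threshold, 937 lost and 46 gained a call, and 15 turned. A change of sign was counted as a turn only where the main or the alternative value was called. Changes of sign without a call on either side are among the 5530. In the LR12 arm BUB1 turned to -1.33 (mean of all probe sets) and -2.05 (second probe set) at 2 h and to -1.49 and -1.53 at 8 h. With the second probe set SPC24 turned to -1.31 at 2 h and -1.92 at 8 h, RRM2 to 0.0205 at 4 h and 0.32 at 8 h, and AURKB to 0.78 at 4 h. SPC25 at 4 h was 0.069 in high-control arrays. Also with the second probe set, against vehicle at 2 h RRM2 was at 0.11 and SPC24 at -0.82, the change of SPC24 differed by -1.85, and at 8 h AURKB was at 0.53 and its change differed by 0.56. Comparisons between arms could not be fitted with a fixed animal term.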
